A study of Mus musculus with 8 samples.

Results

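Autophagy and mitophagy genes were examined in the brown adipose tissue (BAT) of mice whose hearts were put under pressure overload. The set holds 10 genes chosen by name: the kinase Ulk1, the lipid kinase partner Becn1, the conjugation genes Atg5 and Atg7, the autophagosome proteins Map1lc3a and Map1lc3b, the cargo receptor Sqstm1, and the mitophagy genes Pink1, Bnip3l and Fundc1. Every array probe whose transcript accession led to one of these symbols in RefSeq was taken. That gave 14 of the 55681 probes, and 10 of the 21154 genes with a probe. All animals were male C57BL/6NCrSlc mice without a stated transgene, kept at 23 °C on normal chow with 12 h of light and 12 h of dark. Thoracic aortic constriction (TAC), which narrows the aorta so that the heart pumps against a raised load, or a Sham operation was done at 11 weeks of age, and the tissue came from mice aged 13 weeks. The source labels place collection 2 weeks after surgery, which matches these ages, whereas the sample descriptions say 4 weeks. There were 4 Sham and 4 TAC arrays, each described as an independent sample, so p-values refer to the spread between these samples.

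Autophagy encloses cytoplasm in a double membrane, the autophagosome, and delivers it to the lysosome. The Ulk1 kinase complex starts the process, the Becn1 complex marks the membrane with a lipid, and the Atg5 and Atg7 proteins help attach LC3 proteins to the growing membrane, where cargo receptors bind them. Mitophagy removes mitochondria by the same route, and in thermogenic fat it is known for clearing mitochondria when cells lose their brown character. Much of the control acts on the proteins, and transcript levels do not measure the flow of cargo to the lysosome.

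The values are Cy3 intensities on a log2 scale, relative to the 75th percentile of all probes on the same array, so that 0 is the 75th percentile and 1 unit is a doubling of signal. Scanner values were used for 7 arrays. Sham replicate 1 was represented only by the value table of 8 arrays, which for the member probes differed from the scanner values by at most 0.0062 on the other arrays. TAC replicate 1 stood apart. Along the leading principal component (39.3% of the variance of 33335 probes) it scored 89.5, and the rest ran from -32.6 to 4.07. The file labels place the 7 scanned arrays on 1 slide, Sham in one row and TAC in the other, so row and surgery cannot be told apart. All 13 brown adipocyte markers, Ucp1 among them, were above background on every scanned array. In bulk tissue, fewer cells of a type and less RNA per cell cannot be told apart.

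RefSeq promoter windows (GRCm38.p6), from 250 bases before to 50 after the start, were held for 7 of the 10 genes, those of Map1lc3a, Becn1 and Bnip3l being outside the table. Both strands were searched for the E-box CACGTG, its extended form TCACGTGA known from lysosomal genes bound by Tfeb, the antioxidant motif TGACNNNGC and the FoxO motif GTAAACA. The extended form contains the E-box, so a match to it is also a match to the shorter motif. The E-box was found in 7.15% of the 32851 windows and, among the 7 genes, in those of Atg7 and Atg5. The extended form was in 0.974% of windows, the antioxidant motif in 12.4% and the FoxO motif in 3.65%, and among the 7 genes the single further match was an antioxidant motif in the window of Map1lc3b. A match describes letters and is not a bound site. The window of Atg7 lies before a start at base 114671096 of chromosome 6, which is 27969 bases inside the annotated gene (114643127 to 114860604), so it belongs to an internal start and not to the first start of the locus. The stretches that hold the E-boxes are shown with the E-box in capitals, followed by the 100 bases before the start of Sqstm1, the gene with the smallest p of the set, which held none of these motifs.
Atg7, chr6:114670917-114671016, plus strand: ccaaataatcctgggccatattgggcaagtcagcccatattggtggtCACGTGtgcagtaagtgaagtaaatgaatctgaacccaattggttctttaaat
Atg5, chr10:44268239-44268338, plus strand: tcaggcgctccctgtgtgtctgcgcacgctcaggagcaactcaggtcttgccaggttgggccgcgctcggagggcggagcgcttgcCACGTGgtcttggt
Sqstm1, chr11:50210821-50210920, minus strand: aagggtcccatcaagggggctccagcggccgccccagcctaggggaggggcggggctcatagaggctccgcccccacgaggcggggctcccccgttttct

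The 10 genes were measured well above background in both groups, and their mean levels after TAC were slightly lower. With the brightest probe standing for each gene, 10 of 10 had a log2 difference (TAC minus Sham) below 0, with a median of -0.15, or -9.66%, and a range from -0.28 (Ulk1) to -0.085 (Map1lc3a). Over all 14988 genes tested, 57.9% were below 0 and the median was -0.041. None of the 10 differences passed the test: adjusted p by limma, over all 33360 probes tested, ran from 0.319 to 0.848. The share called over all probes was 0%, with a smallest adjusted p of 0.0548, while 3203 probes lower and 1277 higher had an unadjusted p under 0.05. In the set, 1 gene, Sqstm1, reached an unadjusted p under 0.05, against a background of 9.36% of genes in the lower direction. No gene of the set did so in the higher direction, where the background was 3.44%. The 95% intervals of the 10 differences together ran from -0.59 to 0.32, or from -33.6% to 24.9%.

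The size of these differences depended on TAC replicate 1. It was the lowest of the 7 arrays for 9 of the 10 genes, against 38.2% of all genes, the exception being Sqstm1. Without it, 9 of 10 genes were still below 0 with a median of -0.10, and Map1lc3a was above 0. Over all genes, 57.1% were below 0 in that setting, with a median of -0.030. Sham replicate 1 also read low in the value table, below the mean of the other Sham arrays for 10 of 10 genes, against 58% of all genes. With it included in the table of 8 arrays, 10 of 10 were below 0 with a median of -0.11. Over all genes the values there were 57.3% and -0.035. The table without TAC replicate 1 gave 8 of 10 below 0 and a median of -0.062, against 55.8% and -0.024.

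**Figure D1:**
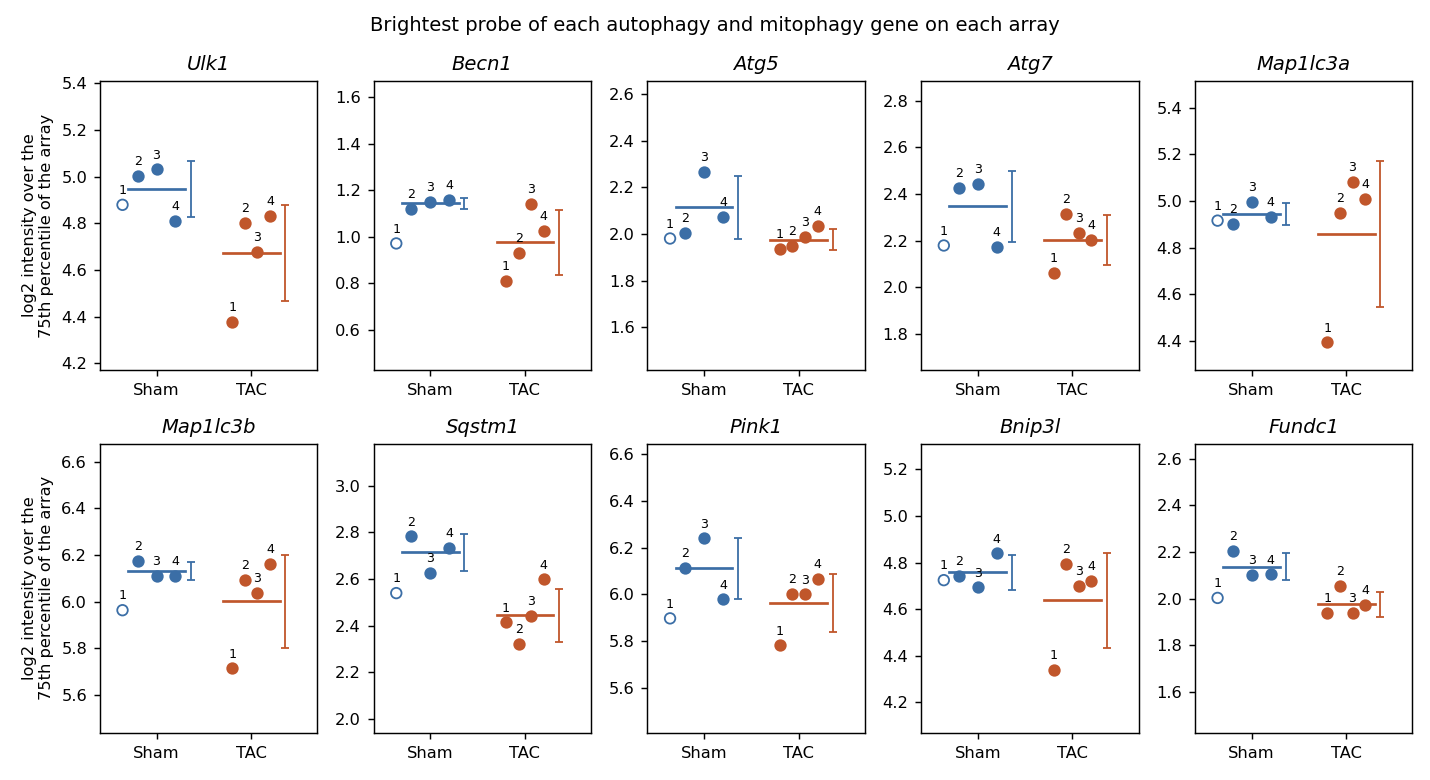
Log2 signal relative to the 75th percentile of the array (vertical axis) of the brightest probe of each of the 10 genes, 1 point per array, with horizontal lines at the Sham and TAC means, SD error bars, the replicate number at each point and Sham replicate 1, known from the value table, as an open point. TAC replicate 1 is the lowest scanned array for 9 of the 10 genes, and for Sqstm1 and Fundc1 all 4 TAC arrays lie below the 3 scanned Sham arrays.

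Ulk1, the kinase that starts autophagosome formation, had the lowest difference of the set. Its log2 signal was 5.00, 5.03 and 4.81 on Sham replicates 2 to 4, and 4.38, 4.80, 4.68 and 4.83 on TAC replicates 1 to 4. The Sham mean was 4.95 ± 0.12 (SD, n = 3) and the TAC mean 4.67 ± 0.21 (SD, n = 4). The groups overlapped at the top of the TAC values, where TAC replicate 4 exceeded Sham replicate 4. The difference was -0.28 (SE 0.13, 95% interval -0.59 to 0.037) with a limma adjusted p of 0.420, and the two-sided exact permutation p was 0.143. Without TAC replicate 1, the difference was -0.18, which is over 1.5 times smaller in size. Sham replicate 1 read 4.88 in the value table, inside the range of the other Sham arrays, and with it the difference was -0.26 (limma adjusted p = 0.365).

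Becn1, a subunit of the lipid kinase complex that prepares the membrane, had the tightest Sham values. These were 1.12, 1.15 and 1.16, with a mean of 1.14 ± 0.022 (SD, n = 3). The TAC arrays read 0.81, 0.93, 1.14 and 1.03, with a mean of 0.98 ± 0.14 (SD, n = 4). TAC replicate 3 lay within the Sham values and the others below them. The difference was -0.17 (SE 0.098, limma adjusted p = 0.487; two-sided exact permutation p = 0.114). Sham replicate 1, at 0.97 in the value table, lay below TAC replicates 3 and 4, so the narrow Sham range held for the scanned arrays alone, and with all 8 arrays the difference was -0.12. Without TAC replicate 1 it was -0.11.

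Atg5 and Atg7 serve the conjugation step: the Atg7 protein activates LC3 and Atg12, and the Atg5 protein joined to Atg12 helps attach LC3 to the membrane. For Atg5 the Sham arrays read 2.01, 2.27 and 2.07 and the TAC arrays 1.93, 1.95, 1.99 and 2.03. A single TAC array, replicate 4, exceeded the lowest Sham array, and the 4 TAC values spread less (SD 0.045) than the 3 Sham values (SD 0.13). The difference was -0.14 (SE 0.090, 95% interval -0.35 to 0.074; limma adjusted p = 0.522), with a two-sided exact permutation p of 0.0571. It leaned on Sham replicate 3, without which it was -0.064. Sham replicate 1 read 1.98 in the value table, within the TAC values.

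Atg7 was read by 2 probes that did not agree in sign. On the brighter probe the Sham arrays read 2.43, 2.44 and 2.17 and the TAC arrays 2.06, 2.31, 2.23 and 2.20. Sham replicate 4 lay among the TAC values, and the difference was -0.14 (SE 0.11, limma adjusted p = 0.569). Without Sham replicate 4 it was -0.23, and leaving out any other single array gave values from -0.18 to -0.097. On the dimmer probe the Sham arrays read -0.50, -0.25 and -0.57 and the TAC arrays -0.56, -0.36, -0.32 and -0.38. The groups overlapped there too, and the difference was 0.034 (SE 0.11, 95% interval -0.23 to 0.30; limma adjusted p = 0.912). It was the single member probe of 14 with a difference above 0.

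Map1lc3a and Map1lc3b encode LC3 proteins, which are anchored in the autophagosome membrane and bind cargo receptors. The Sham arrays read 4.90, 5.00 and 4.93 for Map1lc3a, and the TAC arrays 4.39, 4.95, 5.08 and 5.01. The value of TAC replicate 1 alone lay below the Sham range, and TAC replicates 3 and 4 were the highest of the 7. The difference was -0.085 (SE 0.17, 95% interval -0.49 to 0.32; limma adjusted p = 0.848), and without TAC replicate 1 it changed sign, to 0.070. Without TAC replicate 3 it was -0.16 and without TAC replicate 4 -0.14. The sign also turned under quantile normalization, where the difference was 0.012.

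Map1lc3b was spotted 10 times per array, which measures the error between spots within an array, but not that of labelling, hybridisation or animals. The SD between the 10 spots of an array was 0.052 to 0.074, and the standard error of their mean was at most 0.023. The means read 6.18, 6.11 and 6.11 on the Sham arrays and 5.71, 6.09, 6.04 and 6.16 on the TAC arrays. The gap between TAC replicate 1 and the average of TAC replicates 2 to 4 was -0.38. The difference between groups was -0.13 (SE 0.12, limma adjusted p = 0.652) and -0.035 without TAC replicate 1. In the table of 8 arrays without TAC replicate 1 it was 0.0062, so its sign rests on that array and on Sham replicate 1, which read 5.96.

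Sqstm1, whose protein binds ubiquitin-tagged cargo and LC3 and is itself degraded by autophagy, had the smallest limma p of the set. The Sham arrays read 2.78, 2.63 and 2.73 and the TAC arrays 2.41, 2.32, 2.44 and 2.60. The means were 2.71 ± 0.080 (SD, n = 3) and 2.44 ± 0.11 (SD, n = 4). All 4 TAC arrays lay below the 3 Sham arrays, with a narrow gap between TAC replicate 4 and Sham replicate 3. The difference was -0.27 (SE 0.095, 95% interval -0.49 to -0.046), or -17.1%, with a limma adjusted p of 0.319 and a two-sided exact permutation p of 0.0571, where 35 splits of 7 arrays allow no p below 0.0286. Leaving out TAC replicate 1 gave -0.26, close to the value with it. Sham replicate 1 read 2.54 in the value table, below TAC replicate 4, so the groups overlapped over 8 arrays, where the difference was -0.23 (limma adjusted p = 0.324).

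Pink1 encodes the kinase that builds up on damaged mitochondria and marks them for removal. Its Sham values were 6.11, 6.24 and 5.98 and its TAC values 5.78, 6.00, 6.00 and 6.07. Sham replicate 4 lay below TAC replicates 2, 3 and 4, so the groups overlapped widely. The difference was -0.15 (SE 0.11, 95% interval -0.40 to 0.10; limma adjusted p = 0.561), and -0.088 without TAC replicate 1 or -0.084 without Sham replicate 3, each over 1.5 times smaller.

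Bnip3l, an outer membrane receptor that links mitochondria to LC3, was read by 4 probes, all with a difference below 0. On the brightest, the Sham arrays read 4.74, 4.69 and 4.84 and the TAC arrays 4.34, 4.79, 4.70 and 4.72. TAC replicates 2 to 4 lay inside the Sham range and TAC replicate 1 below it. The difference was -0.12 (SE 0.13, limma adjusted p = 0.693), -0.020 without TAC replicate 1 and -0.079 without Sham replicate 4. The other probes gave -0.15, -0.32 and -0.12, with limma adjusted p of 0.590, 0.426 and 0.667. The probe at -0.32 read 3.47, 3.53 and 3.60 on the Sham arrays and 2.83, 3.47, 3.32 and 3.25 on the TAC arrays, and gave -0.19 without TAC replicate 1. The 4 probes therefore shared a sign and differed in size.

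Fundc1, an outer membrane receptor known from mitophagy under low oxygen, was the second gene whose scanned groups did not overlap. The Sham arrays read 2.20, 2.10 and 2.10 and the TAC arrays 1.94, 2.05, 1.94 and 1.97. The means were 2.14 ± 0.058 (SD, n = 3) and 1.98 ± 0.055 (SD, n = 4), with a difference of -0.16 (SE 0.077, 95% interval -0.34 to 0.021; limma adjusted p = 0.419) and a two-sided exact permutation p of 0.0571. Without TAC replicate 1 it was -0.15. Sham replicate 1 read 2.00, below TAC replicate 2, and with it the difference was -0.13 (limma adjusted p = 0.461).

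Across the set, 2 of 10 genes (Sqstm1 and Fundc1) had every TAC array below every scanned Sham array, against 12.5% of all genes. In the table of 8 arrays 0 of 10 did, against 6.51%. No gene of the set had every TAC array above every Sham array, which held for 4.74% of all genes. The shares for the set rest on so few genes that they do not set it apart from this background.

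**Figure D2:**
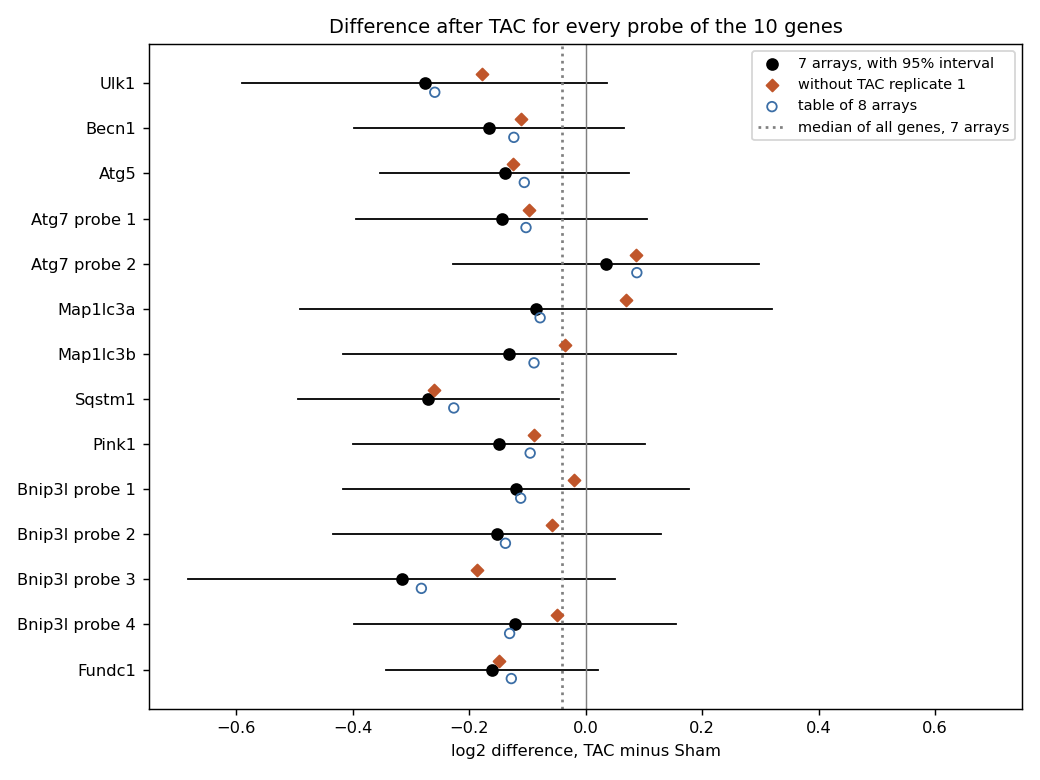
Log2 difference, TAC minus Sham (horizontal axis), of each of the 14 probes of the 10 genes, with its 95% interval from limma over 7 arrays. The values without TAC replicate 1 and over 8 arrays are beside it. The differences of the 10 brightest probes over 7 arrays lie between -0.28 and -0.085, and those of all 14 probes between -0.32 (Bnip3l) and 0.034 (Atg7). The interval of Sqstm1 is the single one that does not reach 0.

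Related genes were compared within arrays by the brightest probe of each, where any shift common to an array cancels. For Map1lc3a minus Map1lc3b the mean within-array difference was -1.19 ± 0.080 (SD, n = 3) in Sham and -1.14 ± 0.15 (SD, n = 4) after TAC, which differed by 0.046 (two-sided exact permutation p = 0.714). For Ulk1 minus Ulk2 it was 3.43 ± 0.096 and 3.25 ± 0.29, which differed by -0.18 (exact permutation p = 0.400). For Bnip3l minus Bnip3, another outer membrane mitophagy receptor, the shift was -0.11 (exact permutation p = 0.371), and for Fundc1 minus Fundc2 it was -0.074 (exact permutation p = 0.457). Without TAC replicate 1 the shift was -0.055 for Ulk1 minus Ulk2, -0.044 for Bnip3l minus Bnip3, -0.042 for Fundc1 minus Fundc2 and 0.10 for Map1lc3a minus Map1lc3b, so each moved by over 1.5 times. The smallest p adjusted over the 4 pairs was 0.610 (exact permutation tests, Benjamini-Hochberg). No pair was thus shown to move apart, which does not show that the partners moved alike. Other probes were not paired, and some differed from the brightest. The other probe gave a group difference of -0.41 for Fundc2, against -0.087, and 0.060 for Ulk2, against -0.092.

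Markers of other cell types moved with TAC replicate 1. The mean of the 10 genes, each centred on its Sham mean, was -0.36 there, against -0.11 to -0.073 on TAC replicates 2 to 4. The 13 brown adipocyte markers averaged -1.17 on that array, against -0.50 to -0.044 on TAC replicates 2 to 4. The 12 macrophage markers averaged 1.33 there against -0.37 to -0.14 on the other TAC arrays, and the 7 lymphocyte markers tested 1.32 against -0.40 to -0.13. The brown adipocyte mean on TAC replicate 1 was carried by a few genes, with Elovl3 at -5.54, Dio2 at -2.60, Otop1 at -1.80 and Ucp1 at -1.18 from the Sham mean, while Cox7a1 was at -0.32 and Adipoq at -0.030. Of the 10 lymphocyte markers listed, 6 were above background on all 7 arrays. Cd3e, the brightest, was at 0.082 from its Sham mean on TAC replicate 1. The others tested were dim, with Sham means from -4.52 (Cd8a) to -1.36 (Lck). TAC replicate 1 thus had more signal of macrophage and of dim lymphocyte markers and less of some brown adipocyte genes. Its mean of the skeletal muscle markers, 1.60, was also the highest of the scanned arrays, against -0.50 to 1.49 on the other TAC arrays. TAC replicate 1 also had the lowest level of the 10 genes. Summed on the linear scale over the scanned arrays, the macrophage markers ranged from 55.0 to 57.8 in Sham and from 45.8 to 103.9 after TAC. The brown adipocyte markers ranged from 5717 to 6888 and from 4514 to 6036. The lymphocyte markers summed to 3.13 to 3.85 in scanned Sham and 2.98 to 5.71 after TAC. Sham replicate 1 is not in these sums. In the value table it read above the mean of the scanned Sham arrays for every macrophage marker but Csf1r and Mrc1. The same held for each lymphocyte marker tested. Tyrobp, for example, read 1.96 against 1.65, and Lck -0.69 against -1.36. Between the groups, 12 of 13 brown adipocyte markers had a difference below 0, against 57.9% of all genes. Their median was -0.18 (-0.13 without TAC replicate 1), with Ucp1 at -0.62. Without TAC replicate 1, Ppargc1a (0.24), Cox8b (0.0068) and Plin5 (0.028) turned above 0, where Adipoq (0.24) stayed. Of the skeletal muscle markers, 12 of 12 were above 0, with a median of 1.01 (0.78 without TAC replicate 1). Myh1 turned to -0.092 without that array. Of the macrophage markers, 10 of 12 were above 0, with a median of 0.12 (-0.32 without TAC replicate 1). The 7 lymphocyte markers tested were above 0, with a median of 0.078 (-0.31 without TAC replicate 1). None of these markers passed the limma test. The muscle markers also varied within both groups, summing to 66.4 to 234.1 on the scanned Sham arrays and 82.2 to 374.3 after TAC. The part of these cell types in the levels of the 10 genes was not tested.

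**Figure D3:**
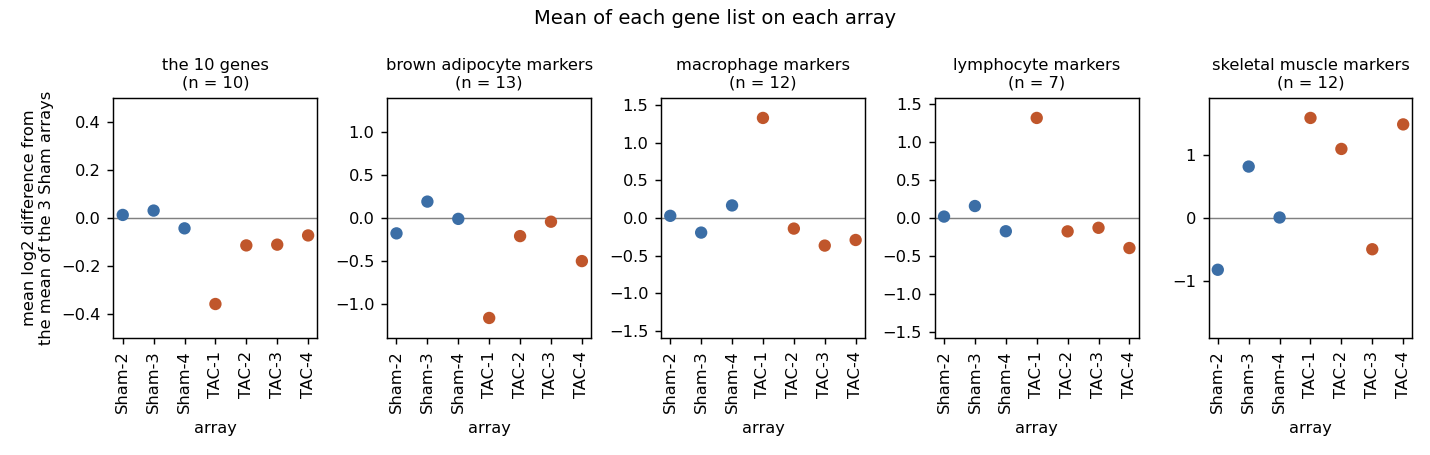
Mean log2 level of the 10 genes and of marker lists on each scanned array, relative to the mean of the 3 scanned Sham arrays (vertical axes, which differ in range), 1 point per array. TAC replicate 1 has the lowest mean of the 10 genes (-0.36) and of the brown adipocyte markers (-1.17). It has the highest mean of the macrophage (1.33), lymphocyte (1.32) and skeletal muscle (1.60) markers.

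The wider autophagy pathway was described by 81 further genes in 9 lists, of which 80 could be tested and Atg4a could not. None passed the limma test, with adjusted p from 0.169 to 0.989. Of the 80, 65 (81.3%) were below 0, against 57.9% of all genes, with a median of -0.091. In the lower direction 14 (17.5%) reached an unadjusted p under 0.05, against 9.36% of all genes, and in the higher 0 did, against 3.44%. Every TAC array lay below every scanned Sham array for 18 (22.5%) of them, against 12.5% of all genes, and for 10 (12.5%) over 8 arrays, against 6.51%. Without TAC replicate 1, 53 (66.3%) were below 0, against 57.1% of all genes, with a median of -0.052. Quantile normalization gave 50 (62.5%) below 0, against 50.6% of all genes. The share below 0 therefore depended on that array and on the scaling.

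The upstream steps differed in sign between lists. The other initiation genes, which encode partners and a relative of Ulk1, were below 0 in 4 of 4 (median -0.11). Among them Atg101, a scaffold of the kinase complex, was at -0.18 (limma adjusted p = 0.633). Ulk2 was at -0.092, with its other probe at 0.060. The median was -0.059 and Atg101 at -0.054 without TAC replicate 1. The nucleation list around Becn1 was above 0 in 4 of 6 (median 0.13). Its gene with the smallest p above 0 was Ambra1, a Becn1 regulator, at 0.18 (SE 0.080, limma adjusted p = 0.401), where all 4 TAC arrays lay above the 3 scanned Sham arrays and Sham replicate 1 read 2.34, above all TAC arrays. Pik3c3, the lipid kinase itself, was at -0.033, with its other probe at 0.0080. The membrane supply list was below 0 in 8 of 8 (median -0.19, or -0.12 without TAC replicate 1). It was led by Atg9b, a lipid scramblase of the autophagosome membrane, at -0.49 (SE 0.18, limma adjusted p = 0.321). Atg9b was dim, with means of -2.60 in scanned Sham and -3.09 after TAC. Its groups overlapped, with TAC replicate 2 at -2.89 above Sham replicate 2 at -2.95.

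In the conjugation list 6 of 8 genes were below 0 (median -0.072, or -0.015 without TAC replicate 1). Atg10, which joins Atg12 to Atg5, stood lowest: the Sham arrays read 1.83, 1.69 and 1.53 and the TAC arrays 1.02, 1.21, 1.18 and 1.31. The difference was -0.50 (SE 0.11, limma adjusted p = 0.179), its other probe gave -0.31, and Sham replicate 1, at 1.35, also lay above all TAC arrays. Atg16l2 was at 0.15 (limma adjusted p = 0.730), or 0.25 without TAC replicate 1. The GABARAP family, relatives of LC3, was below 0 in 3 of 3, with Gabarapl2 at -0.25 (limma adjusted p = 0.321), Gabarap at -0.093 and Gabarapl1 at -0.087. The latter pair were at -0.012 and -0.049 without TAC replicate 1.

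Cargo receptors other than Sqstm1 were split, with 3 below and 3 above 0 (median 0.034, or 0.085 without TAC replicate 1). Optn, a receptor for ubiquitin-tagged mitochondria and bacteria, was at 0.22 (limma adjusted p = 0.388), and Wdfy3, a scaffold for aggregates, at -0.11 with its other probe at 0.29. In the mitophagy list 14 of 15 were below 0 (median -0.14, or -0.099 without TAC replicate 1). Nipsnap1, a mitochondrial protein that recruits autophagy receptors, had the largest difference of the 80: the Sham arrays read 1.25, 1.60 and 1.09 and the TAC arrays 0.68, 0.45, 0.57 and 0.63. The TAC arrays lay below every Sham array, Sham replicate 1 at 0.81 included, and the difference was -0.74 (SE 0.14, limma adjusted p = 0.169), or -0.77 without TAC replicate 1. Bnip3 was at -0.0083, with its other probes at -0.13 and 0.040. Fundc2 was at -0.087, with its other probe at -0.41, and Fkbp8, a further outer membrane receptor, was at 0.014.

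Lysosome and fusion genes were below 0 in 14 of 16 (median -0.082, or -0.074 without TAC replicate 1). Of them, 5 (31.3%) had an unadjusted limma p under 0.05 in the lower direction, against 9.36% of all genes. This share was 33.3% in the GABARAP family (1 of 3), 25% in membrane supply and 21.4% in upstream regulators. It was 13.3% in mitophagy, 12.5% in conjugation and 0% in initiation, nucleation and cargo receptors. Atp6v1h, a subunit of the pump that acidifies lysosomes, was at -0.27 (limma adjusted p = 0.320), and Hexa, a lysosomal hexosaminidase, at 0.28 (limma adjusted p = 0.456). Upstream regulators were below 0 in 11 of 14 (median -0.13, or -0.11 without TAC replicate 1). Tfe3, a transcription factor of lysosomal genes, read 3.25, 3.41 and 3.23 on the Sham arrays and 2.92, 3.02, 3.05 and 3.01 on the TAC arrays, a difference of -0.29 (limma adjusted p = 0.263) on its brighter probe and -0.11 on the other. Its relative Tfeb was at 0.10 (limma adjusted p = 0.664), and Ddit4, an inhibitor of the Mtor kinase, at 0.27 (limma adjusted p = 0.519).

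**Figure D4:**
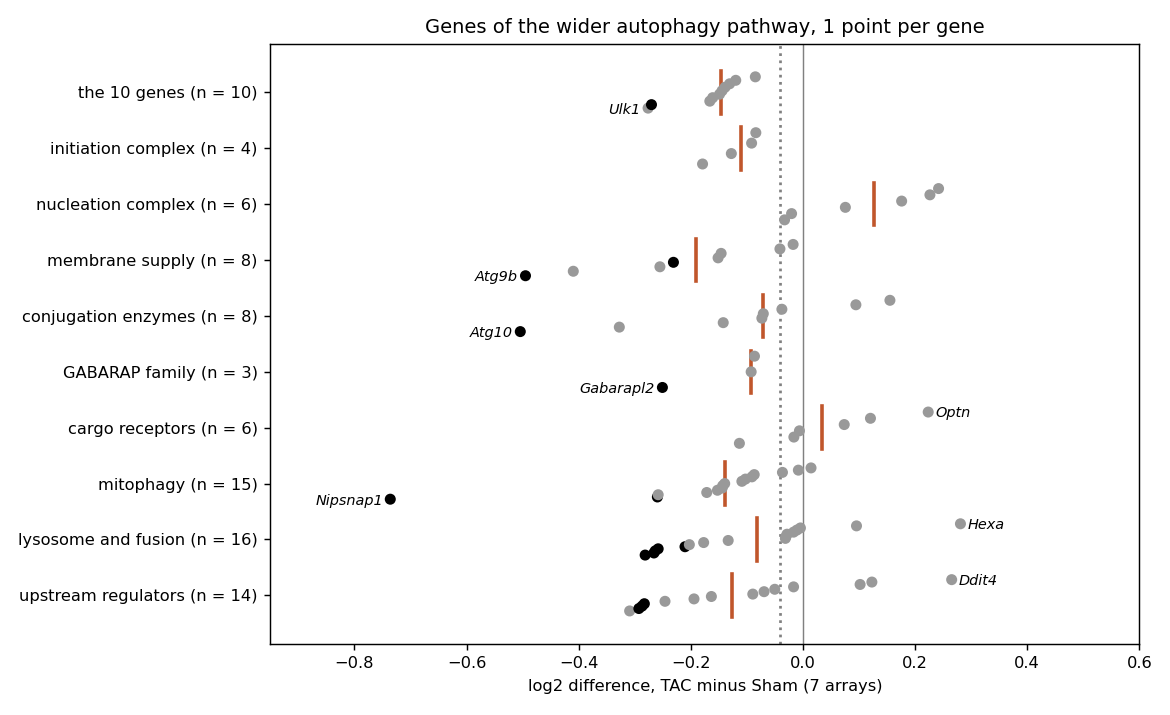
Log2 difference, TAC minus Sham, over 7 arrays (horizontal axis) of the 10 genes and of 80 further autophagy genes, 1 point per gene, by list. Vertical bars mark list medians, the dotted line the median of all genes tested (-0.041), and black points genes with an unadjusted limma p under 0.05, among which Nipsnap1 is lowest at -0.74.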

How the data were processed

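Total RNA (100 ng) of BAT was hybridised to Agilent 1-colour arrays. The deposited scanner files hold the intensity of each spot (Agilent Feature Extraction 10.7.1.1, per the submitters' processing notes), already background-subtracted by that software. The authors' value table of 8 arrays holds signal on a linear scale, within 1% of the scaled scanner signal for at least 99.995% of 22186 brighter probes on each array. Here log2 signal minus the 75th percentile over probes was taken for 59305 non-control spots, outlier spots were left out and spots of a probe averaged. Probes well above background on at least 3 of 7 arrays, and measured on at least 2 of each group, were tested with limma (version 3.58.1, run under R 4.3.3), and p-values were adjusted by the Benjamini-Hochberg method (threshold 0.05). The fit was tested on simulated data with 200 changed probes. The planted differences were larger than those of the 10 genes, and noise was drawn separately for each value. The simulation therefore does not bear on differences of their size or on a shift shared across an array. Symbols came from RefSeq through the accession of the probe and were found for 28026 probes (50.3%). The brightest tested probe stood for a gene. Genes named were the 10 members, Ulk2, Bnip3, Fundc2, the GABARAP family, Tfeb and, in each list, the gene with the smallest p in each direction, and some genes under this rule are not reported here. Members and lists were chosen with earlier results of these data known. Exact permutation tests were two-sided. Alternatives covered background correction, scaling, source table, filters, outlier spots, variance model, the methods' t-test, a replicate block, array weights and leaving out each array. The number of arrays limits the precision.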

Additional observations from a re-analysis of the deposited data

Results flagged for a closer look

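Among 51 groups of 4 arrays examined for a single array far from the others by Dixon's ratio at the 95% level, 3 held such an array, which was TAC replicate 1 each time. Chance gives about 1 in 20 groups, and the lists share arrays. No single gene of the 10 was among them. The mean of the GABARAP family on TAC replicate 1 was -0.32, against -0.089 to -0.080 on the other TAC arrays (ratio 0.959). The mean of the macrophage markers was 1.33 there, against -0.37 to -0.14 (ratio 0.867). The mean of the lymphocyte markers was 1.32, against -0.40 to -0.13 (ratio 0.844).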

How the results depend on the processing

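Of 222 alternative values for the 10 genes, 216 had the direction of the reported one, and none passed the adjusted threshold (smallest limma adjusted p 0.224). Map1lc3a turned sign without TAC replicate 1 and under quantile normalization (0.012), a replicate block over 7 arrays (0.070), array weights (0.021) and the table of 8 arrays without TAC replicate 1 (0.076), and it ranged from -0.16 to 0.070 when each array was left out. Map1lc3b turned to 0.0062 in the last of these tables. Leaving out each array gave -0.14 to 0.0011 for the pair Fundc1 minus Fundc2 and -0.016 to 0.10 for Map1lc3a minus Map1lc3b. Over all probes, lower calls were 1 with normexp, 1 with median centring and 2 with array weights, and leaving out each array gave 0 to 2 lower and 0 to 7 higher, the largest counts without TAC replicate 4. The cause was not tested. Replicate numbers were not taken to pair the arrays: same-numbered arrays correlated at -0.025 to 0.0017 in the scanner values, and in the table of 8 arrays at 0.27 for number 1 and 0.020 to 0.056 for the others. With the replicate block there were 0 calls, with a median of the 10 genes of -0.10 over 7 arrays, where TAC replicate 1 has no partner, and -0.11 over 8. Sqstm1 lost its unadjusted p under 0.05 under quantile normalization, with both blocks, without Sham replicates 2 or 4 or TAC replicate 2, and in the 8-array table without TAC replicate 1. The methods' t-test gave 2996 lower and 1385 higher probes unadjusted, and 0 after Benjamini-Hochberg. Array weights, the percentile over spots and the 8-array table without TAC replicate 1 were chosen after seeing the data.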

Other observations

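In the table of 8 arrays, 10 of the 80 further autophagy genes had every TAC array below all 4 Sham arrays, against 6.51% of all genes. Beside Atg10, Nipsnap1 and Tfe3 these were, named after their values were seen, Wipi1 (a lipid-binding protein of the early autophagosome), the mitochondrial ubiquitin ligase gene Marchf5, the lysosomal protease gene Ctsb, the lysosomal channel gene Mcoln1, the fusion gene Snap29, the Mtor inhibitor gene Tsc1 and the energy-sensing kinase gene Prkaa1. Over the 7 scanned arrays their log2 differences were -0.23 for Wipi1, -0.26 for Marchf5, -0.21 for Ctsb, -0.20 for Mcoln1, -0.28 for Snap29, -0.28 for Tsc1 and -0.19 for Prkaa1. Their limma adjusted p ran from 0.299 (Tsc1) to 0.464 (Mcoln1), so none passed the test. These genes were picked for TAC values below all Sham values, so the sign of their differences was fixed by the choice. Without TAC replicate 1 the differences ran from -0.27 (Tsc1) to -0.12 (Mcoln1). Other probes gave -0.20 for Wipi1, -0.36 and -0.26 for Marchf5, and -0.12 for Snap29.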
